A study of Mus musculus with 8 samples.

Results

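The 10 genes described here mark macrophages of the mouse liver. They were chosen by name, and all 10 were found among the 27453 genes listed in the files. Clec4f, Vsig4 and Cd5l were taken as markers of resident Kupffer cells. Marco, Adgre1, Csf1r, Lyz2 and the 3 chains of complement C1q (C1qa, C1qb and C1qc) were taken as general macrophage and myeloid markers. Reads were summed per gene in each library, and the resident markers were set against the general ones.

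The libraries came from whole livers of 8 mice of the inbred strain C57BL/6JN, for which the labels name no altered gene and no agent, age being the variable of the study. Poly(A) RNA was read as native molecules through nanopores (direct RNA sequencing). There were 4 libraries with O titles (O1 to O4) and 4 with Y titles (Y1 to Y4), and in each set numbers 1 and 2 were males and 3 and 4 females. The study compared young mice of about 2 months with old mice of about 18 months. The labels contradict each other, since the O-titled animals are recorded as 12 weeks old and the Y-titled animals as 80 weeks old, the reverse of what the title letters would stand for as initials of old and young. The treatment text recorded with the samples contradicts the age field too. Which set is old was not settled from these labels, so groups are named by title and a positive log2 fold means higher in O-titled libraries. Each library is 1 animal, per the animal numbers in the file headers.

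Kupffer cells are the macrophages that sit in the liver sinusoids, where they clear bacteria, immune complexes and spent red cells from portal blood. Their upkeep depends on signalling through the CSF1 receptor. When resident cells are lost, monocytes from blood can enter and take on the same identity, gaining genes such as Clec4f as they do so, while Lyz2 and Adgre1 are shared with many other macrophages and, for Lyz2, with monocytes and neutrophils. In RNA from a whole liver, more cells of a type and more RNA per cell cannot be told apart.

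Marker levels are given as CPM (counts-per-million), the reads of a gene relative to the reads of all tested genes, with TMM scaling (trimmed mean of M values). The libraries held 545171 to 2593200 mapped reads, and 3 reads, the floor used for detection, correspond to 1.16 to 5.50 CPM of mapped reads. All 10 markers passed the filter on low counts, which kept 6759 genes. Among cells other than macrophages, hepatocyte markers summed to 82988 to 129337 CPM. Dendritic cell markers summed to at most 10.7 CPM, and Flt3 of that list, with Ngp and Ltf of the neutrophil list, had 0 reads in every library.

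RefSeq (GRCm38.p6) gave upstream windows for 7 of the 10 genes, trimmed here to the bases before the listed transcript. Windows of 4 genes are shown: C1qb, C1qc and Vsig4, which hold the core sequence described next, and Clec4f, which does not. Capitals mark matches on either strand to GAGGAA, a core sequence bound by PU.1, the ETS factor that myeloid cells need. In C1qc the capitals extend over GAGGAAGT, read on the opposite strand. Sequences run 5′ to 3′ in the direction of the gene.
C1qb (chr4:136886201-136886450, minus strand): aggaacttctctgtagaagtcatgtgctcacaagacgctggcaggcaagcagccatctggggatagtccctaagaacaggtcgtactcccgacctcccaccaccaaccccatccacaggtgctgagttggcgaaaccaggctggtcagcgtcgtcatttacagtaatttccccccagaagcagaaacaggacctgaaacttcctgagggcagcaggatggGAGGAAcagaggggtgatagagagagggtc
C1qc (chr4:136893066-136893164, minus strand): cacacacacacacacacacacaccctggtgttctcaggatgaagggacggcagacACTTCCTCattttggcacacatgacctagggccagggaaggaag
Vsig4 (chrX:96293439-96293688, minus strand): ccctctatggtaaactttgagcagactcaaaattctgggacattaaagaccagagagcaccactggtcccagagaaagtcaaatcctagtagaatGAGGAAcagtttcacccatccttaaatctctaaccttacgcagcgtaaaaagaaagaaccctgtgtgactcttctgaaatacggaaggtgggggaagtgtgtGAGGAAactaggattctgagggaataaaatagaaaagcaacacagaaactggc
Clec4f (chr6:83656188-83656366, minus strand): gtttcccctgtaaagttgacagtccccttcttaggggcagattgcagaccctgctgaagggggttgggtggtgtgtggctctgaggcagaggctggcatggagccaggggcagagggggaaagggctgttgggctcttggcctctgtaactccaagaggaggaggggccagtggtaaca
In Vsig4 the core occurred at 2 places, beginning 155 and 53 bases before the start site, and in C1qb at 1 place, 30 bases before it. Of the 7 windows, 5 held the core (C1qb, C1qc, Cd5l, Marco and Vsig4). Those of Clec4f (log2 fold 0.01, O-titled over Y-titled) and Lyz2 (1.43) did not hold it. The same letters occur, on either strand, in 28.3% of 32851 mouse windows of 300 bases, and the longer form, found here in C1qc only, in 3.20%. TGCTGAC, a half-site for Maf factors, was in none of the 7 and in 4.67% of all windows. These matches describe the letters only, since no binding was measured.

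Of the resident markers, Clec4f had close group means, Vsig4 and Cd5l had higher means in O-titled libraries, and none of the 3 passed the edgeR quasi-likelihood test. Clec4f encodes a C-type lectin that in mice is found almost only on Kupffer cells. It lies on chromosome 6 (83644542 to 83656187, minus strand, mm10). Its level was 101, 102, 157 and 164 CPM in O1 to O4 and 132, 105, 144 and 127 CPM in Y1 to Y4. The O-titled females were the highest of the 8 libraries and the O-titled males the lowest, so the Y-titled range lay inside the O-titled one. The means were 131 ± 34.0 and 127 ± 16.4 CPM (SD, n = 4 each), a log2 fold of 0.01 ± 0.133 (SE; adjusted p = 0.989).

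Vsig4, the complement receptor of the immunoglobulin family with which Kupffer cells catch C3b-coated particles, lies on the X chromosome (96247203 to 96293438, minus strand). It was read at 47.3, 36.3, 71.2 and 58.1 CPM in O1 to O4 and at 37.8, 33.7, 47.8 and 47.6 CPM in Y1 to Y4. O3 and O4 stood above all Y-titled libraries, and O2 lay among the Y-titled males. The log2 fold was 0.35 ± 0.156 (SE; adjusted p = 0.266).

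Cd5l, a secreted scavenger-receptor protein also called AIM, lies on chromosome 3 (87357881 to 87371073, plus strand). The 4 O-titled livers gave 252, 84.6, 285 and 189 CPM, and the 4 Y-titled ones 126, 129, 118 and 137 CPM. The Y-titled livers were close together, while 3 O-titled livers were above them and O2 was below them. The means were 203 ± 88.1 and 128 ± 7.78 CPM (SD, n = 4 each), with a log2 fold of 0.68 ± 0.349 (SE; adjusted p = 0.426).

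**Figure D1:**
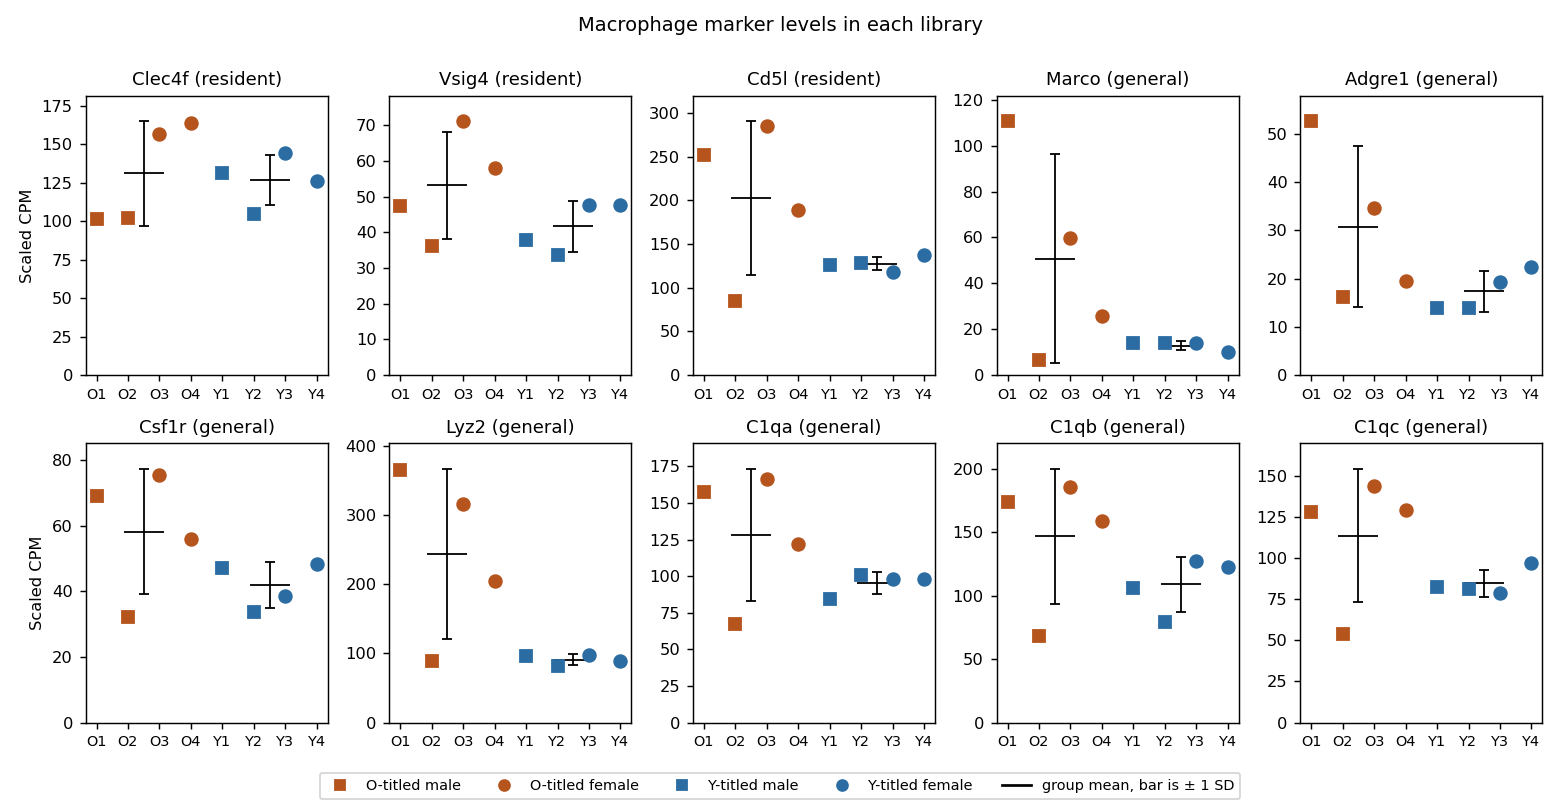
Each panel plots 1 gene, with scaled CPM on the y axis from 0 and the 8 libraries on the x axis, squares for males and circles for females, and a bar for the group mean ± 1 SD. In 9 of the 10 panels O2 is the lowest O-titled library, while the Y-titled points lie close together.

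Among the receptors of the general set, Marco had the largest fold of the 10 genes and the widest scatter among O-titled libraries. Marco is a class A scavenger receptor that binds bacteria and particles, and lies on chromosome 1 (120474538 to 120505024, minus strand). O1 gave 111 CPM from 288 reads, O2 6.72 CPM from 5 reads, O3 59.9 CPM from 69 reads and O4 25.9 CPM from 37 reads. Y1 to Y4 gave 13.8, 13.9, 13.8 and 9.87 CPM from 22, 7, 15 and 11 reads. O1, O3 and O4 were thus above the whole Y-titled range and O2 under it. The counting error alone was 44.7% of the value in O2 and 5.89% in O1. The log2 fold was 2.11 ± 0.853 (SE; adjusted p = 0.320), and it was 1.13 without O1.

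Adgre1 encodes F4/80, the adhesion receptor by which mouse macrophages are usually stained, on chromosome 17 (57358691 to 57483527, plus strand). O1 to O4 had 52.7, 16.1, 34.7 and 19.6 CPM and Y1 to Y4 had 13.8, 13.9, 19.3 and 22.4 CPM. O1 and O3 were highest, and the remaining O-titled livers fell within the Y-titled range. The log2 fold of 0.92 ± 0.406 (SE; adjusted p = 0.307) went down to 0.32 without O1.

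Csf1r, the receptor for the growth factors CSF1 and IL-34, lies on chromosome 18. Its level was 69.2, 32.2, 75.5 and 56.0 CPM in O1 to O4 and 47.2, 33.7, 38.6 and 48.5 CPM in Y1 to Y4. O2 was the lowest of the 8 libraries, and the other 3 O-titled ones were the highest. The log2 fold was 0.49 ± 0.210 (SE; adjusted p = 0.256). Csf1r overlaps Hmgxb3 on the opposite strand, a gene with 53 reads over all libraries.

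Lyz2 encodes lysozyme, the secreted enzyme that cuts bacterial cell walls, on chromosome 10 (117277331 to 117282321, minus strand). Its level was 366, 88.7, 317 and 204 CPM in O1 to O4 and 96.9, 81.2, 97.4 and 88.9 CPM in Y1 to Y4. O2 sat inside the narrow Y-titled range, and the other 3 O-titled livers were all above it. The means were 244 ± 124 and 91.1 ± 7.68 CPM (SD, n = 4 each), with a log2 fold of 1.43 ± 0.462 (SE; adjusted p = 0.211). DESeq2 called this difference (adjusted p = 0.00142) and limma voom did not. The neighbouring copy Lyz1 has a listed transcript 96.0% identical over 1262 aligned bases. Lyz1 had 6 reads in all, each in O1, and Lyz2 had 2074. How reads that match both were assigned is not given in the sources used here, and sharing between the copies was not tested, so the split is uncertain. Neutrophils make Lyz2 too, and the 13 neutrophil markers, none above the count filter, summed to 14.8 to 64.4 CPM in O-titled and 13.9 to 92.8 CPM in Y-titled livers, so the groups overlapped. With no filter on low counts 11 were tested, their median log2 fold was 1.54, and S100a8 was called higher (background 3.81%). In the fits without O2 and without O1, 1 marker each passed the filter (-1.61 and -1.89), and neither was called. The neutrophil part in the Lyz2 values was not tested.

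The C1q chains, which assemble into the recognition molecule that starts the classical complement pathway, varied together from library to library. Their genes lie side by side on the minus strand of chromosome 4, C1qb at 136880129 to 136886187, C1qc at 136889804 to 136893065 and C1qa at 136895917 to 136898803, a span of 18.675 kb with no other annotated gene. C1qa was read at 158, 67.2, 167 and 122 CPM in O1 to O4 and at 84.3, 101, 98.3 and 97.8 CPM in Y1 to Y4. C1qb was read at 174, 68.5, 186 and 159 CPM and at 106, 79.2, 128 and 123 CPM in the same order. C1qc was read at 128, 53.7, 144 and 130 CPM and at 82.5, 81.2, 79.0 and 96.9 CPM. For each chain O2 was the lowest and O3 the highest of the 8 libraries. The log2 folds were 0.47 ± 0.229, 0.44 ± 0.244 and 0.45 ± 0.220 (SE), with adjusted p of 0.357, 0.431 and 0.361. The make-up of the C1q reads stayed within a narrow band: C1qa gave 29.7% to 38.6% of them, C1qb 30.3% to 41.9% and C1qc 25.9% to 31.6%, from 132 to 1196 reads per library.

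None of the 10 markers was called at an adjusted p of 0.05, where 4.01% of all tested genes were and 2.09% were called higher in O-titled libraries. Those calls were 141 higher and 130 lower, and 240 higher and 100 lower when no scaling factors were used. Without adjustment 4 had a p of 0.05 or less (Vsig4, Adgre1, Csf1r and Lyz2), all higher in O-titled libraries, against 8.23% of tested genes in that direction. DESeq2 called Lyz2 only (background 3.52%), and limma voom called none (background 3.95%). With no filter on low counts, edgeR called Adgre1, C1qa and C1qb (background 3.81%). All 10 log2 folds were above 0, as were 49.9% of those of all genes, and their median was 0.48, with 0.35 for the resident and 0.49 for the general markers and -0.00 over all genes. No marker had every O-titled value above every Y-titled one, which 4.1% of genes did, and none had every O-titled value below, which 4.62% did.

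Of the fits that left out 1 library, only the one without O2 called any marker. When this library was left out, 7 of the 10 were called higher in O-titled livers, against 2.37% of 7131 genes in that fit: Lyz2 (log2 fold 1.72, adjusted p = 2.1e-05), Cd5l (0.94, adjusted p = 0.00134), Marco (2.46, adjusted p = 0.00351), C1qc (0.65, adjusted p = 0.0107), C1qa (0.66, adjusted p = 0.0146), C1qb (0.64, adjusted p = 0.0171) and Csf1r (0.64, adjusted p = 0.0475). Clec4f (0.06, adjusted p = 0.907), Vsig4 (0.42, adjusted p = 0.191) and Adgre1 (1.09, adjusted p = 0.0816) were not. Leaving out any of the other 7 libraries called none. Without O1 (background 3.48%) the log2 folds shrank to 0.97 for Lyz2, 0.40 for Cd5l, 0.29 for Csf1r and 0.23, 0.16 and 0.24 for C1qa, C1qb and C1qc. O2 was below O1, O3 and O4 in 9 of the 10 markers, all but Clec4f, compared with 28.5% of all genes. Leaving O2 out raises the O-titled mean of those 9 by construction, so the calls without it are no independent support. O2 had 792004 mapped reads and a mean read length of 1156 bases, against 1163 (O3) to 1235 bases in the other libraries. Its share of mapped reads, 86.6%, lay inside the range of the other libraries (84.6% to 88.2%). The part of depth and read length in its marker levels was not tested.

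**Figure D2:**
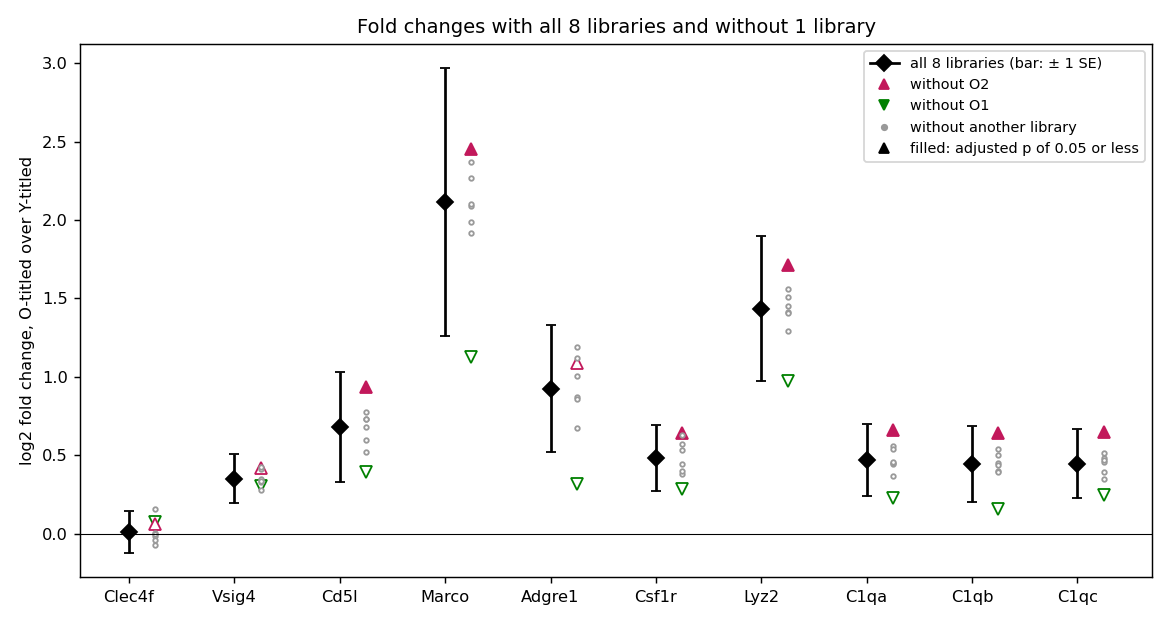
Log2 fold changes of O-titled over Y-titled libraries (y axis) for the 10 markers (x axis), with all 8 libraries (diamonds, bars of 1 SE) and with each library left out (small symbols beside them, filled where the adjusted p was 0.05 or less). Filled symbols appear for 7 markers, all without O2, and the folds without O1 are the lowest for the 8 markers other than Clec4f and Vsig4.

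The markers were more scattered among O-titled than among Y-titled livers. The coefficient of variation (SD as a percent of the mean) was larger among O-titled than among Y-titled libraries for 10 of 10 markers, against 47.4% of all genes. It was over 3 times as large for 5 of them, against 5.09% of genes. Cd5l had 43.5% among O-titled and 6.10% among Y-titled livers, and Lyz2 had 50.7% and 8.44%. Marco had 89.7% and 15.4%, with few reads behind the Y-titled values. Clec4f, at 25.9% and 12.9%, and Vsig4, at 28.1% and 17.0%, were the least variable of the 10 in the O-titled group. The median gene had 19.4% and 20.5%, so the libraries as a whole were not more scattered in the O-titled group.

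**Figure D3:**
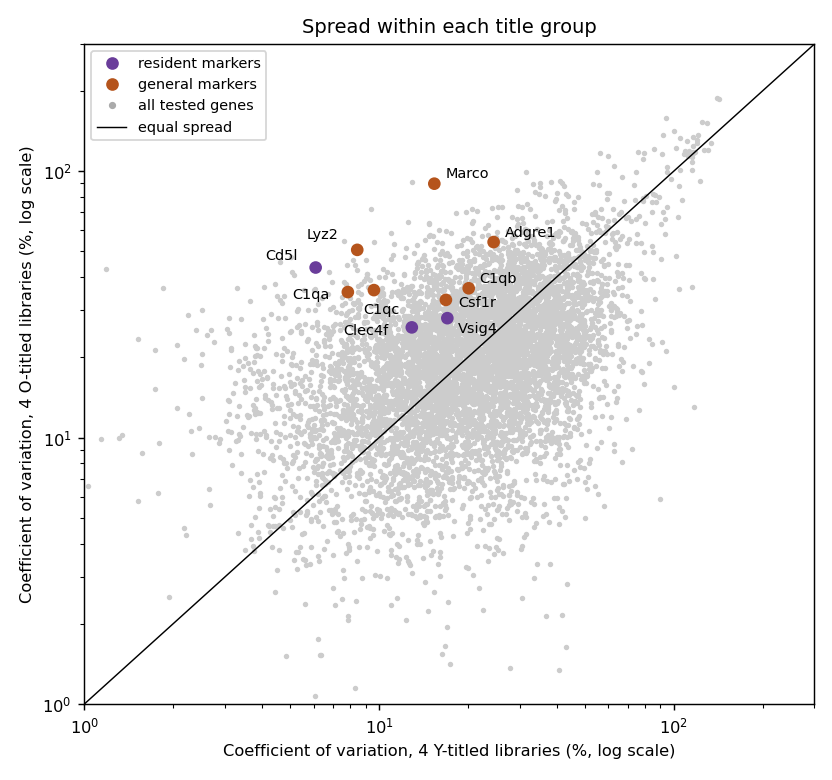
Coefficient of variation over the 4 Y-titled libraries (x axis) and the 4 O-titled libraries (y axis), in percent on log axes from 1, for all tested genes (grey) and the 10 markers (coloured). All 10 markers lie above the line of equal spread, Cd5l, Lyz2 and Marco farthest from it, at 7.13, 6.00 and 5.83 times.

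Resident markers made up a lower share of the marker reads in 3 O-titled livers than in any Y-titled one. Clec4f, Vsig4 and Cd5l together gave 27.5% of the reads of the 10 genes in O1 (exact binomial 95% interval 26.0% to 28.9%), 40.1% in O2 (35.3% to 45.0%), 34.3% in O3 (32.0% to 36.6%) and 36.5% in O4 (34.1% to 38.9%). The Y-titled shares were 39.9%, 39.8%, 39.6% and 39.0%. The interval of O4 overlapped all 4 Y-titled ones, that of O3 overlapped those of Y2, Y3 and Y4 but not that of Y1 (37.1% to 42.8%), and that of O1 overlapped none. These intervals cover counting error only. The means were 34.6 ± 5.31% and 39.6 ± 0.417% (SD, n = 4 each), and this sum over chosen genes was given no test. With Lyz2 left out of the 10 genes, the means were 43.1 ± 4.65% and 45.1 ± 0.868%, and the O-titled range of 36.7% to 47.7% enclosed the Y-titled range of 43.9% to 45.9%. The difference of 5.00 points was then 1.98 points. With the C1q chains left out instead, the O-titled range of 40.1% to 60.8% lay below the Y-titled range of 63.2% to 65.2%. The highest O-titled share there was that of O2, and its interval of 54.7% to 66.6% covered the whole Y-titled range. The contrast thus depends on which genes are summed.

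Both sums of markers were larger in O1, O3 and O4 than in the Y-titled livers, the general sum by more. The resident markers summed to 401, 223, 513 and 411 CPM in O1 to O4 and to 267 to 311 CPM in the Y-titled group. The general markers summed to 1058, 333, 984 and 716 CPM in O1 to O4 and to 404 to 487 CPM in the Y-titled group. In O2 both sums were the lowest of the 8 livers, and general over resident reads came to 1.49 there, to 1.51 to 1.56 in the Y-titled livers and to 2.64, 1.92 and 1.74 in O1, O3 and O4. Within the resident set, Clec4f gave 25.3% of resident reads in O1 and 30.6% in O3, and 39.3% to 46.5% in O2, O4 and the Y-titled livers.

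**Figure D4:**
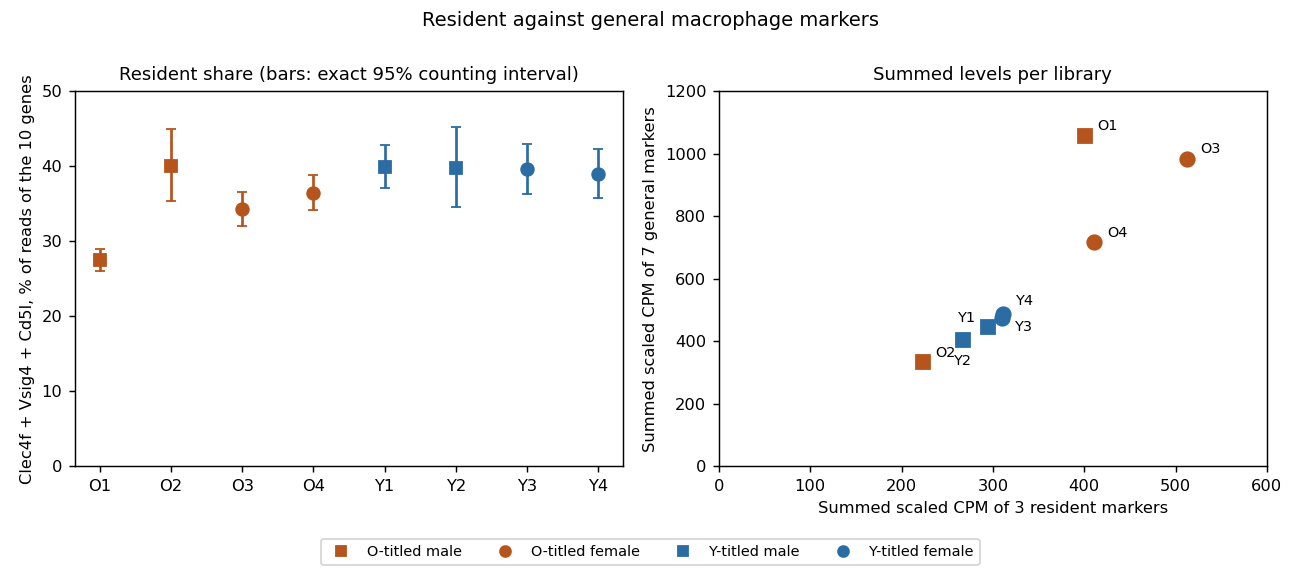
Left, the percent of reads of the 10 genes that fell on the 3 resident markers (y axis) in each library (x axis), with exact 95% counting intervals; right, summed CPM of the 7 general markers (y axis) against that of the 3 resident markers (x axis), 1 point per library. The Y-titled libraries lie between 39.0% and 39.9%, O1 is lowest at 27.5%, and O1, O3 and O4 stand apart at the upper right.

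The ratios of Lyz2 to Clec4f and to C1qb, the 2 genes used as denominators, did not overlap between the groups. Read for read, Lyz2 over Clec4f was 3.60, 0.868, 2.02 and 1.25 in O1 to O4 and 0.737, 0.774, 0.675 and 0.702 in Y1 to Y4. Lyz2 over C1qb was 2.10, 1.29, 1.71 and 1.29 in the O-titled and 0.917, 1.02, 0.763 and 0.723 in the Y-titled livers. O2 too was above every Y-titled liver in both ratios, but on few reads. Its Lyz2 over Clec4f rests on 66 and 76 reads, with counting errors of 12.3% and 11.5%. That of Y2, the nearest Y-titled liver, rests on 41 and 53 reads, with errors of 15.6% and 13.7%. The other 8 markers set over Clec4f, and the other 8 set over C1qb, all overlapped between the groups. These ratios were not tested, and how many of all genes would show no overlap in such a ratio was not computed. Each ratio depends on 2 genes of different length, so only the libraries can be compared.

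Between the sexes no marker was called by edgeR (background 2.96%). The 2 with an unadjusted p of 0.05 or less were the resident markers Clec4f and Vsig4, both higher in females (background 6.42%). Clec4f averaged 148 ± 16.4 CPM in females and 110 ± 14.4 CPM in males (SD, n = 4 each; log2 fold 0.42 ± 0.133 SE, adjusted p = 0.124). Vsig4 averaged 56.2 ± 11.2 and 38.7 ± 5.94 CPM (log2 fold 0.49 ± 0.156 SE, adjusted p = 0.125), with every female above every male, which 3.15% of genes showed. No marker had every female below every male (background 3.37%). The smallest gap was 47.6 CPM in Y4 against 47.3 CPM in O1. The other 8 markers had log2 folds from -0.64 (Marco) to 0.41 (C1qb), and 8 of the 10 folds were above 0 (background 49.7%).

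Within each sex the comparison rests on 2 against 2 libraries. Among females both O-titled livers lay above both Y-titled ones for 9 of the 10 markers, all but Adgre1, and 22.3% of all genes did so; none had both below (background 23.9%). None of the 10 was called there by edgeR (background 5.47%) or limma voom, and none had an unadjusted p of 0.05 or less (background 16.5%). All 10 female folds were above 0 (background 49.2%). They ran from 0.25 (Clec4f) to 1.82 (Marco), with 1.48 for Lyz2 and 0.88 for Cd5l. Among males, where O1 and O2 lay at opposite ends for most markers, Adgre1 alone had both O-titled livers above both Y-titled ones (background 20.3%), and Clec4f alone had both below (background 20.4%). In males 9 of 10 folds were above 0 (background 49.7%), and no marker was called by edgeR (background 1.26%) or limma voom. In edgeR 1, Adgre1, had an unadjusted p of 0.05 or less (background 9.45%). The change from Y to O was not called different between the sexes for any marker by either tool (edgeR background 0.385%). No marker had an unadjusted p of 0.05 or less in edgeR (background 8.46%). In limma voom Clec4f did (log2 fold 0.50, unadjusted p = 0.0447, adjusted p = 0.543), and the share of all genes at that level was not computed. In edgeR the smallest adjusted p belonged to Clec4f, whose difference was 0.49 ± 0.237 (SE; adjusted p = 0.587), from -0.25 in males to 0.25 in females.

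The mean read covered from 35.8% of the listed transcript, for the longer Csf1r form, to 90.0%, for C1qa, with 85.3% for Lyz2 and 57.5% for Clec4f. The mean read lengths of each marker overlapped between the groups. Csf1r had 2 listed transcripts with the same coding length of 2931 bases that differ at their ends, with a last exon of 831 bases (ENSMUST00000025523) or 1846 bases (ENSMUST00000115268). The form with the longer last exon took 60.0%, 58.3%, 59.8% and 53.8% of Csf1r reads in O1 to O4 and 54.7%, 35.3%, 54.8% and 51.9% in Y1 to Y4, where Y2 had only 17 reads. The groups overlapped, and transcript usage was not called for Csf1r (Simes adjusted p = 1.00 by diffSpliceDGE of edgeR) or for any of the 1236 genes tested (background 0%), of which 0.647%, without Csf1r, had an unadjusted p of 0.05 or less. For Adgre1, the second listed transcript had 17 reads in all and was not tested.

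Across the 8 libraries most markers varied alike, and Clec4f had lower correlations with the others, from -0.01 (Adgre1) to 0.75 (Vsig4). Pearson's r of log2(CPM + 0.5) over the 45 pairs had a median of 0.83 and a highest value of 0.98. These values share the libraries and their scaling and are given as a description. Of 6758 other genes, those most like C1qb were Arhgdib (r = 0.98), Rpain, H2-Ab1, Pcna and Rab28. C1qc ranked 14th, Csf1r 15th, Cd5l 34th, C1qa 46th and Clec4f 649th in that order. The genes most like Lyz2 were Wfdc17 (r = 0.99), Actg1, Marco, Rassf7 and Tmsb4x, where Actg1 and Tmsb4x encode actin and an actin-binding peptide. Wfdc17 was at 184, 59.1, 169 and 114 CPM in O1 to O4 and at 51.5 to 69.1 CPM in the Y-titled livers. The genes most like Clec4f were Blvra (r = 0.95), Cpt1a, Tmod3, Cyp2d26 and Sbno2, none of them a macrophage marker, and Cpt1a and Cyp2d26 are expressed by hepatocytes. Vsig4 was the marker nearest to Clec4f, at rank 150 (r = 0.75). Without O1 and O4, the farthest from the median, r of Clec4f with the other 9 markers was 0.70 to 0.96. These values depend on which libraries are left out. With C1qb, r of Clec4f was 0.58 over all 8 libraries, 0.96 without O1 and O4, and 0.07 without O2 and Y2. With Lyz2 it was 0.24 over all 8 and 0.79 without O1 and O3.

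Other genes of the macrophage programme showed higher medians in O-titled livers, with few calls. Over all tested genes 2.09% were called higher, and with no filter on low counts 3.81% were called in either direction. Of 36 other macrophage and pan-myeloid genes, 24 were tested, 23 had a log2 fold above 0 and the median was 0.60. Of these, 2 rose: Ctss, a lysosomal protease (log2 fold 0.70 ± 0.183 SE, adjusted p = 0.0367), and Aif1, the cytoskeletal protein IBA1 (0.94 ± 0.256 SE, adjusted p = 0.0465). Ctss was at 60.3, 39.0, 101 and 87.5 CPM in O1 to O4 and at 33.7 to 52.1 CPM in the Y-titled group, so O2 again lay within the Y-titled range. Without O2 the count was 17 of 29, in the fit where 2.37% of all genes were called higher. The Ctss call was lost without O1, O3, O4, Y2, Y3 or Y4, and with DESeq2 (adjusted p = 0.0979) and the replicate block (adjusted p = 0.0608). Without the sex term neither Ctss (adjusted p = 0.203) nor Aif1 (adjusted p = 0.104) was called. The Aif1 call was lost without any 1 of the 7 libraries other than O2, and with DESeq2 (adjusted p = 0.145), limma voom (adjusted p = 0.0697) and the block (adjusted p = 0.0574). With no filter on low counts 16 of 36 were called (background 3.81%). Tyrobp (0.58), Ctsc (0.53) and Ccl9 (-0.06), also abundant in this list, did not pass. Ctsc and Ccl6 were among the genes called higher in females than in males (log2 folds 0.74 and 0.88, adjusted p = 0.0112 and 0.0236).

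Of 23 other Kupffer identity genes, 16 were tested and 1 rose, Il18bp, the secreted inhibitor of interleukin 18 (log2 fold 0.72 ± 0.198 SE, adjusted p = 0.0483). The call was lost without any 1 of the 8 libraries, and Il18bp was also higher in females (0.86, adjusted p = 0.0196). DESeq2 (adjusted p = 0.165), the replicate block (adjusted p = 0.0922) and the fit without the sex term (adjusted p = 0.308) did not call Il18bp. The median of this list was 0.39. Its most abundant members, Paqr9 (-0.80), Slc40a1 (0.23), Nr1h3 (0.38) and Id3 (-0.11), are not restricted to macrophages in the liver, and none passed. DESeq2 called Paqr9 lower (adjusted p = 0.0465). With no filter on low counts 23 genes were tested (background 3.81%). Of these, Paqr9 was called lower (adjusted p = 0.00072), and Timd4, Il18bp and Hmox1 were called higher. C6 was lower in females (-3.32, adjusted p = 0.000419). Timd4, a phosphatidylserine receptor of long-lived resident Kupffer cells, was under the count filter with 55, 4, 28 and 15 reads in O1 to O4 and 12, 0, 8 and 6 in Y1 to Y4, and is named here after its values were seen. Without O2, Timd4 passed the filter through the O-titled libraries where it was high. In that fit 2 of 18 tested genes of the list, Timd4 and Hmox1, were called higher (background 2.37%).

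The class II presentation genes, which load peptides for helper T cells, had a median of 1.01 over 4 tested genes of 7, the highest among the lists with at least 3 tested genes. Without O1 the median was 0.55 and none was called, and with no filter on low counts it was 0.77 over 7 genes. H2-Eb1 rose (log2 fold 1.17 ± 0.276 SE, adjusted p = 0.0275), at 41.5, 13.4, 49.5 and 50.4 CPM in O1 to O4 and 11.3, 13.9, 19.3 and 30.5 CPM in Y1 to Y4. Cd74 (1.07), H2-Ab1 (0.95) and H2-Aa (0.79) did not pass with all libraries, while without O2 all 4 were called, out of 5 tested. The H2-Eb1 call was lost without O1, O3, O4, Y1, Y2 or Y3, with limma voom (adjusted p = 0.0513) and without the sex term (adjusted p = 0.242). Class II genes are also made by B and dendritic cells. The 8 B and plasma cell markers, all with reads and all under the count filter, summed to 20.3 to 44.3 CPM in O-titled and 6.28 to 9.44 CPM in Y-titled livers, and their part in the class II values was not tested. Jchain of that list was called higher with no filter on low counts (background 3.81%), and also without O2 (log2 fold 4.32, background 2.37%). All 8 markers together had 15, 4, 10 and 7 reads in Y1 to Y4. Jchain thus passed the filter without O2 through the O-titled libraries where it was high, and that call is no independent support. T and NK cell markers summed to 6.72 to 41.7 and 8.81 to 17.1 CPM, and Ccl5 of that list was called higher with no filter (background 3.81%).

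Few genes of recruited monocytes, the blood cells that replace lost Kupffer cells, could be tested. Of 13 listed, 2 were tested, Plac8 and Ifitm3, both with a log2 fold of 0.02, and neither passed. With no filter on low counts all 13 were tested and the median was 1.20. In that fit S100a4 and S100a6, small calcium-binding proteins, were called higher (background 3.81%). Ifitm3 is made by many cell types. Ccr2 had at most 5 reads and Ly6c2 at most 8 in a library, so neither could be compared at this depth; both are named after their values were seen.

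Of the 8 tested genes of the CSF1 receptor axis and macrophage transcription factors, none passed, and the median was 0.43. Cebpb was at 0.51 and Spi1, which encodes PU.1, at 1.18 (adjusted p = 0.186). Of the 7 tested classical complement partners none passed and the median was 0.14. C4b (0.38, adjusted p = 0.0753), the substrate that follows C1 in the cascade, was higher in every O-titled library than in any Y-titled one, at 841 to 929 against 551 to 822 CPM. C3 (0.38), Serping1 (0.27) and C1ra (-0.09), all made largely by hepatocytes, did not pass.

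Among 11 tested scavenger and engulfment receptors and their ligands, 3 rose (background 2.09%) and the median was 0.35. Gas6, the bridging ligand of the TAM receptors (Tyro3, Axl and Mer) in the uptake of dying cells, was at 49.2, 41.6, 71.2 and 123 CPM in O1 to O4 and 26.4, 13.9, 35.8 and 31.4 CPM in Y1 to Y4. Its log2 fold was 1.33 ± 0.214 (SE; adjusted p = 0.00173). Cd36, a receptor for fatty acids and oxidised lipoproteins, was at 54.6, 63.1, 116 and 95.9 CPM in O1 to O4 and 32.1, 31.7, 35.8 and 53.0 CPM in Y1 to Y4 (1.07 ± 0.166 SE, adjusted p = 0.000928). Both kept their call whichever library was left out, and neither was called without the sex term (adjusted p = 0.154 for Gas6 and 0.0574 for Cd36). For both, O2 was above every Y-titled library, unlike the markers. Lrp1 (0.46 ± 0.123 SE, adjusted p = 0.0429) lost its call without O2, O3, O4, Y1, Y3 or Y4. DESeq2 (adjusted p = 0.0980), the replicate block (adjusted p = 0.0661) and the fit without the sex term (adjusted p = 0.125) did not call Lrp1. Cd36, Gas6 and Lrp1 are also made by hepatocytes, endothelial or stellate cells. Scarb1 (-0.33, adjusted p = 0.198) did not pass. Cd36 and Gas6 were also called higher in females than in males (0.72 and 0.89, adjusted p = 0.0210 and 0.0281).

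In the list of lipid-associated macrophage genes, Cd36, already counted among the scavenger receptors, was the only 1 of 6 tested to rise (background 2.09%). The list median was 0.10. The median was -0.03 without O1, and 1.07 over 10 genes with no filter on low counts, where Cd63 was called too. Fabp5 (-0.80), Cd9 (0.14) and Spp1 (0.05) did not pass. None of the 3 tested cytokine and chemokine genes passed (Cxcl16 0.92, Tgfb1 0.41 and Il18 0.13), and Cxcl2 had 0 reads in every library.

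Markers of the other liver cells had medians near 0. Among sinusoidal endothelial markers 1 of 14 tested rose, Fcgr2b (log2 fold 0.62 ± 0.171 SE, adjusted p = 0.0490), and the median was 0.02. Fcgr2b is an Fc receptor that macrophages express too. Its call was lost without O1, O2, O4, Y1, Y2 or Y3, with DESeq2 (adjusted p = 0.112) and with the replicate block (adjusted p = 0.0790). The fit without the sex term did not call Fcgr2b either (adjusted p = 0.193). Over all genes 2.09% were called higher. Clec4g (0.17), Dnase1l3 (-0.22) and Eng (-0.17), also abundant there, did not pass. Of the stellate cell markers 1 of 8 rose, Dcn (0.58 ± 0.122 SE, adjusted p = 0.00956), at a list median of 0.13, and not without the sex term (adjusted p = 0.0502), while Reln (0.72), Ecm1 (0.09) and Colec11 (0.06) did not pass. None of 5 erythroid (median -0.16) or 10 hepatocyte markers (median -0.14) passed, nor did Spp1, the cholangiocyte marker tested. Among the hepatocyte markers limma voom called Serpina1c lower (adjusted p = 0.0353), and with no filter on low counts 4 were called lower (Apoa1, Ttr, Apoc3 and Serpina1c). The haemoglobin genes Hba-a2, Hbb-bs, Hbb-bt and Hba-a1 had log2 folds of -0.10, -0.07, -0.26 and -0.16, and the hepatocyte genes Alb, Apoa1, Ttr and Serpina1c had -0.10, -0.46, -0.36 and -0.40. Alas2 and Serpina1c were called lower in females (-2.67 and -0.57, adjusted p = 1.28e-07 and 0.00717).

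**Figure D5:**
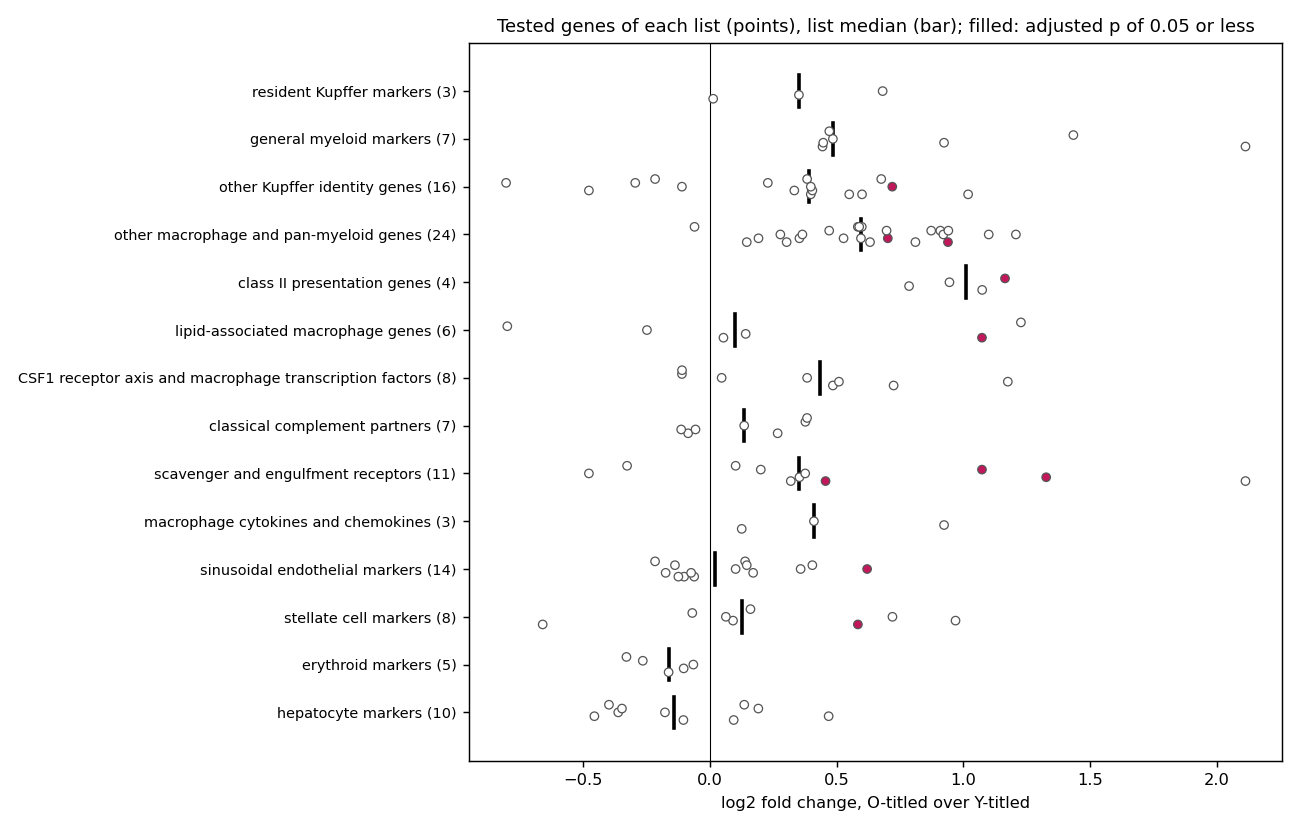
Log2 fold changes of O-titled over Y-titled libraries (x axis) for each tested gene (points, filled where the adjusted p was 0.05 or less) in the lists with at least 3 tested genes (rows, number tested in brackets), with a bar at each median. The highest medians are those of class II presentation (1.01), other macrophage (0.60) and general marker genes (0.49), and those of erythroid and hepatocyte markers are below 0.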

How the data were processed

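Direct RNA sequencing reads from 8 mouse livers had been counted per transcript by the authors. Each deposited table holds raw whole-number counts with read lengths. Minimap2 2.24, mm10 and DESeq2 are named, with no role, in the submitters' processing notes; the counting tool, annotation and treatment of multimapping reads are not given in the sources used here. Sums per gene were tested in edgeR 4.0.16 (R 4.3.3): filterByExpr at a minimum count of 10 by title, trimmed mean of M values, robust quasi-likelihood test with sex as covariate, Benjamini-Hochberg adjustment over 6759 genes at 0.05. The same fit gave the sex comparison, and a fit of 4 groups the differences within each sex. Positions are from GENCODE M21 (mm10). DESeq2 1.42.0 and limma 3.58.1 were alternatives, beside no filter, no scaling factors, no sex term, a replicate block and leaving out each library. On simulated counts for the O-titled against Y-titled comparison (6759 genes), 76.9% of 2-fold and 97.7% of 4-fold changes were recovered. Of the genes called there, 8.28% had not been changed, more than the adjusted p of 0.05 allows for. The markers and gene lists were chosen with earlier results of these data known. Named genes are the 10 markers, list genes called in either comparison, up to 4 abundant genes per list, and the 5 genes most like C1qb, Lyz2 and Clec4f. Replicate numbers share sex, and the main fit used no pairing. With 2 libraries per title and sex, deviations from title and sex means give 1 correlation per sex, -0.12 in males and -0.01 in females. These values cannot show whether the numbers pair animals, and the replicate block is given as an alternative.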

Additional observations from a re-analysis of the deposited data

Results flagged for a closer look

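Marco in Y4 stood below the other Y-titled livers, at 9.874 CPM against 13.8 CPM for the next lowest, a gap of 0.98 of the group's range. It rests on 11 reads, with a counting error of 30.2%, and was the only one of 22 groups of 4 libraries checked to stand apart in this way. Chance alone gives about 1 in 20.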

How the results depend on the processing

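The number of genes called between the groups, 271 (141 higher and 130 lower), was 340 with no scaling factors (240 higher and 100 lower), 600 of 15751 with no count filter, 134 without the sex term and 154 to 294 when 1 library was left out, with 154 without Y4 and 176 without Y3. The number of markers called, 0, was 3 with no filter (Adgre1, C1qa and C1qb, adjusted p = 0.00346, 0.0298 and 0.0459), 1 with DESeq2 (Lyz2), and 0 to 7 when 1 library was left out, 7 without O2 and 0 without any other. With the replicate block, 184 genes and 0 markers were called, and the block changed no marker's call. The sex count of 200 ranged from 125 (without O2) to 217. The cause of these shifts was not tested. All marker folds kept their direction under every alternative except Clec4f, whose log2 fold of 0.01 ranged from -0.069 to 0.16 and turned to -0.011, -0.037, -0.0031 and -0.069 without O3, O4, Y3 and Y4. In the sex comparison, leaving out 1 library turned the sign for 6 markers: Marco ranged from -1.07 to 0.83 and Adgre1 from -0.38 to 0.64 (positive without O1, and for Adgre1 0.13 without O4), Lyz2 from -0.22 to 0.63 (negative without O2, and -0.09 without O3), and Cd5l from -0.042 to 0.55, Csf1r from -0.034 to 0.39 and C1qa from -0.011 to 0.48 (negative without O2). The Y-titled minus O-titled difference in resident share, 5.00 points, was 12.1 without the C1q chains, 1.98 without Lyz2, 7.93 from the summed reads of each group and 2.63 to 6.84 when 1 library was left out. The alternatives for markers under the count filter were not run, since all 10 passed it. The shallowest library gave Marco and Adgre1 7 reads each, a counting error of 37.8%.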
